A study of Danio rerio with 6 samples.

Results

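Liver nuclei were the 1000 nuclei, of 11236 kept in a single-nucleus RNA-seq library from zebrafish with melanoma, that devoted the largest share of their gene UMIs (unique molecular identifiers, counts of captured RNA molecules) to 7 liver genes. The 7 genes were tdo2a, slc38a4, agxtb, ldlra, tfa, apoa1b and fabp10a, and at least 4 of them had to be detected. A nucleus was kept with 1000 to 1000000 gene UMIs, at least 200 genes and at most 20% of UMIs in mitochondrial genes. The remaining 10236 nuclei are called other nuclei. Because the members were chosen by their measured levels of these 7 genes, every difference between liver nuclei and other nuclei is a description and carries no test.

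The library was 1 droplet reaction of nuclei from adult fish with large tumors. By the study's methods such fish had the casper background and the genotype mitfa-BRAF, p53-/-, mitfa-/-, in which the melanocyte promoter mitfa drives oncogenic human BRAF, and were injected as embryos with mitfa-MITF and mitfa-GFP. Tumor and adjoining organs, without head and tail, were homogenized, and nuclei were sorted by GFP into about equal numbers with and without it. The count table holds 6 hashtags, named for 3 fish (Zebra1, Zebra2 and Zebra3) and for a GFPpos and a GFPneg gate of each, and these names are the only source for fish and gate. Cells dissociated from tumor and nearby tissue, in samples E and F, formed the other part of the series with gene counts used here. No fish without a tumor was included, so no value below is a comparison with a healthy liver.

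The liver of fish, like that of mammals, makes most proteins of the blood plasma, including transport proteins, clotting and complement factors and apolipoproteins, and handles amino acids, glucose, bile acids and foreign compounds. In egg-laying females it also makes vitellogenins, the yolk precursors, when estrogen acts through its nuclear receptors. Hepatocytes are the main cell of the organ, beside bile duct cells, stellate cells, endothelial cells and resident macrophages.

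The library held 115656723 gene UMIs, of which 4964395 lay in liver nuclei and 96893953 in other nuclei. The 1559133 barcodes with 1 to 50 gene UMIs, taken as a measure of RNA free in the suspension, held 2738617. In CPM, human BRAF did not follow the gate labels in Zebra1 and Zebra2. In other nuclei, human BRAF was at 284 CPM (UMIs of a gene per 1000000 gene UMIs) in those tagged GFPpos, against 821 CPM in those tagged GFPneg, in Zebra1, at 16.0 against 74.5 CPM in Zebra2, and at 225 against 209 CPM in Zebra3. Tagged GFPpos, other nuclei gave 4627, 589 and 572 BRAF UMIs in Zebra1, Zebra2 and Zebra3, against 2579, 257 and 1060 tagged GFPneg. The GFPpos tag was on 1321 of 2630, 1385 of 2489 and 565 of 2573 other nuclei with 1 tag in these fish. Per nucleus BRAF was thus higher under GFPpos in each fish, so CPM and UMIs per nucleus ordered the tags differently in Zebra1 and Zebra2. The gates are given below as tags only, and a tag is not read as the presence or absence of GFP.

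Liver nuclei were of ordinary depth for this library. They had a median of 3367 gene UMIs (range 1015 to 38550) and 1124 genes, while other nuclei had medians of 2471 gene UMIs and 1187 genes. Mitochondrial genes took a median of 0.838% of UMIs in liver nuclei and 0.428% in other nuclei. The 10 genes with most UMIs took 21.2% of all UMIs in liver nuclei and 7.09% in other nuclei.

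The summed share of the 7 genes had a median of 6.92% in liver nuclei, against 0.118% in other nuclei and 0.967% in the barcodes of 1 to 50 UMIs. All 7 genes were detected in 735 liver nuclei, 6 in 151, 5 in 70 and 4 in 44. The threshold lay inside a continuous distribution: the nucleus of rank 1000 had a share of 5.4026% and the next one a share of 5.4003%. Below it came 1785 nuclei with a share of at least 2% (median 4.08%), here called lower-ranked nuclei. Counting upward from the free RNA, nuclei were fewest at shares of 2 to 2.5% (147 nuclei) and rose again to 393 at 4 to 4.5%, so that the top 1000 are the upper end of a population of 2785 nuclei and not all of it. At the other end, 7994 nuclei (71.1%) had a share under 1%, and in these the 7 genes summed to 700 CPM, less than the 9667 CPM of the free RNA.

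**Figure D1:**
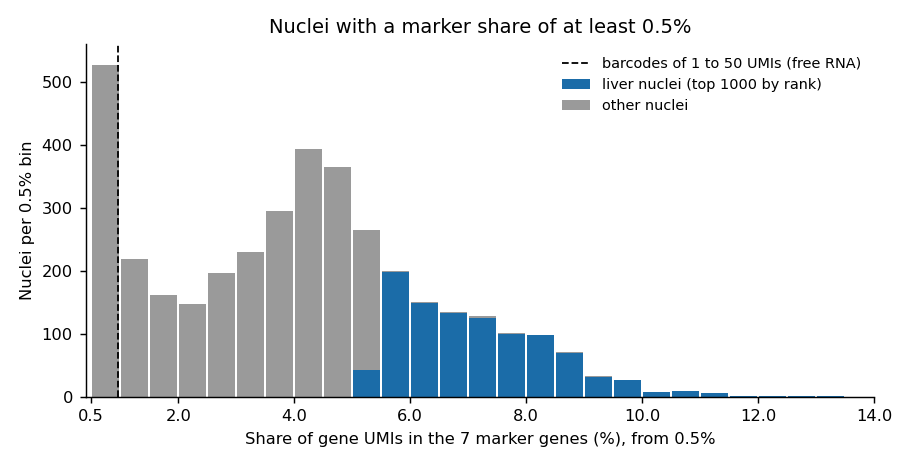
Number of nuclei (vertical axis) in 0.5% bins of the share of gene UMIs in the 7 marker genes (horizontal axis, from 0.5% upwards), with liver nuclei in blue, other nuclei in grey and the share in barcodes of 1 to 50 UMIs as a dashed line. The 1000 liver nuclei begin at 5.4026%, on the right flank of a second peak whose highest bin holds 393 nuclei.

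The 7 genes of the rule are given as levels only. Transcripts of the secreted and carrier proteins were detected in nearly every liver nucleus. apoa1b, the main protein of high-density lipoprotein, was at 32350 CPM in liver nuclei and 1801 CPM in other nuclei. tfa, the iron carrier transferrin, was at 20850 CPM in liver nuclei and 1523 CPM in other nuclei, and fabp10a, the liver fatty acid binding protein, at 13250 against 935 CPM. When each nucleus was thinned to 1000 UMIs, at least 1 UMI of fabp10a was found in 99.9% of liver nuclei and 40.8% of other nuclei. As a background, the 300 nuclei with the highest share of skeletal muscle genes (median 1841 UMIs), which should lack fabp10a, gave 26.3%.

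The metabolic and transport genes of the rule were seen less often. tdo2a, which breaks down tryptophan, was detected in 76.9% of thinned liver nuclei, against 16.4% of other and 4.33% of muscle-ranked nuclei. For agxtb, an aminotransferase that detoxifies glyoxylate, the shares were 75.5%, 15.1% and 4.00%, and for ldlra, the receptor that takes up low-density lipoprotein, 53.7%, 10.3% and 2.00%. slc38a4, an amino acid transporter, differed from these in being found in 28.0% of thinned muscle-ranked nuclei, above the 19.9% of other nuclei, beside 78.0% of liver nuclei. It therefore marks liver less sharply in this library than tdo2a or agxtb.

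Across the genome, 22870 genes had at least 20 UMIs in all nuclei kept. Of these, 272 (1.19%) were at least 4-fold higher in liver nuclei than in other nuclei in the sum and in each of the 3 fish, and 1586 (6.93%) were at least 4-fold lower by the same rule. Liver nuclei of Zebra2 held 349904 gene UMIs, so genes at low levels in other nuclei of that fish could not be called lower. The 6.93% is thus not a share of the genes that could have been called. Without Zebra2, which gave only 28 tagged liver nuclei, the counts were 544 higher and 3910 lower, and without Zebra3 the count of lower genes was 3448. The median log2 ratio over all genes was −1.41, so that a typical gene took a smaller fraction of the summed UMIs in liver nuclei. Sums weight each nucleus by its depth, and other nuclei had a median of 2471 gene UMIs but reached 619800. Those tagged for Zebra2 held 40380921 of the 96893953 gene UMIs in other nuclei. Levels in other nuclei are thus not those of a typical nucleus, and the part of the deepest nuclei in these counts was not tested. The same nuclei defined the groups and gave the counts, and apoa1b, tfa and fabp10a of the rule are among the 272. Other nuclei also include the 1785 lower-ranked nuclei, and against nuclei with a marker share under 1%, 477 genes were higher and 1752 lower. The counts describe how far the profile of liver nuclei departs from the rest and nothing more.

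Secreted plasma proteins were the most uniformly raised group. Of 36 gene entries measured, 33 were called higher and 0 lower (median log2 ratio 3.68), and the group summed to 46610 CPM in liver nuclei, 3355 CPM in other nuclei and 6604 CPM in free RNA. ahsg1, a fetuin that binds mineral in plasma, was at 1483 CPM (95% exact Poisson interval 1449 to 1517) in liver nuclei and 66.9 CPM (65.3 to 68.6) in other nuclei. proca, the anticoagulant protein C, reached 173 against 8.37 CPM, and vtnb, the adhesive plasma protein vitronectin, 606 against 30.9 CPM. serpina1l, a relative of the mammalian elastase inhibitor alpha-1-antitrypsin, stood at 8925 CPM in liver nuclei and 523 CPM in other nuclei, and at 9604, 7025 and 7285 CPM in liver nuclei of Zebra1, Zebra2 and Zebra3. The smallest ratios of the group were those of serpinf1, a serpin of the extracellular matrix, at 4.27-fold, and of f9a, a clotting factor, at 4.62-fold, neither of which passed in all fish.

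Complement, the cascade of plasma proteins that marks and lyses microbes, followed the same pattern, with 15 of 22 entries called higher, 1 lower and a median log2 ratio of 3.81. c3a.2, one of several near-identical copies of the central component C3, had the largest ratio of any listed gene, at 2130 CPM (2090 to 2171) in liver nuclei and 61.4 CPM (59.8 to 63.0) in other nuclei, or 34.7-fold. Reads of the C3 copies may be split among them by the counting, so the value of a single copy is uncertain. The pore-forming components c9 (6780 against 359 CPM) and c8b (240 against 14.02 CPM) were 18.9-fold and 17.1-fold higher. By fish, c9 was at 7275, 3410 and 6637 CPM in liver nuclei of Zebra1, Zebra2 and Zebra3, against 250, 384 and 284 CPM in other nuclei of the same fish, so each fish showed the difference. The member that went the other way was cfd, the protease factor D that fat tissue makes in mammals, at 12.5 CPM in liver nuclei and 79.0 CPM in other nuclei.

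Of 31 lipoprotein and cholesterol genes, 11 were called higher and 2 lower (median log2 ratio 2.13). Among those called higher, apoa2, a protein of high-density lipoprotein, was at 28100 against 1963 CPM. The apolipoprotein B genes apobb.2 (282 against 14.2 CPM) and apoba (208 against 12.95 CPM), whose proteins carry triglyceride out of the liver, were over 4-fold higher in each fish. A further apolipoprotein B gene, apobb.1, was at 3030 CPM in liver nuclei and is set beside intestine below. lcat, the plasma enzyme that esterifies cholesterol, had a 20.1-fold ratio over all nuclei but no UMI in liver nuclei of Zebra2 and was not called. hmgcs1, an enzyme of cholesterol synthesis inside cells, was at 18.9 CPM in liver nuclei and 65.5 CPM in other nuclei and was not called. apoea, a gene of the secreted apolipoprotein E that macrophages also use, was called lower, at 30.8 against 147 CPM.

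Amino acid and urea metabolism had 9 of 44 genes called higher and 0 lower (median log2 ratio 1.99). bhmt, which remethylates homocysteine, was at 1907 CPM in liver nuclei and 122 CPM in other nuclei. The tyrosine-degrading enzymes hgd (421 against 28.3 CPM) and hpda (781 against 56.0 CPM) and mat1a, which makes S-adenosylmethionine (560 against 39.9 CPM), were 13.96-fold to 14.9-fold higher. At the other end, the transaminase got1 was at 20.6 CPM in liver nuclei and 20.4 CPM in other nuclei, a ratio of 1.01 that combined ratios of 0.707, 0.151 and 2.04 in Zebra1, Zebra2 and Zebra3.

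Of 23 glucose and glycogen genes, 3 were called higher and 1 lower (median log2 ratio 2.02). fbp1b, fructose bisphosphatase, an enzyme of the pathway that makes glucose, was at 610 CPM in liver nuclei and 46.5 CPM in other nuclei. g6pca.1, the glucose phosphatase that releases glucose to the blood, and pcxb, pyruvate carboxylase, had ratios of 11.4-fold and 11.3-fold but were below 4-fold in Zebra2 and were not called. The gene called lower was ugp2b, an enzyme that makes the sugar donor of glycogen synthesis, at 8.26 CPM in liver nuclei and 78.1 CPM in other nuclei. ppp1r3b, a subunit that targets a phosphatase to glycogen, was at 10.3 and 132 CPM over all nuclei, but at 13.4 and 31.8 CPM in Zebra3, and was not called.

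Growth factor and hormone genes had 6 of 26 called higher and 0 lower (median log2 ratio 2.79). igf2a and igf1, the insulin-like growth factors that the liver releases, were at 258 and 91.1 CPM in liver nuclei, against 12.8 and 7.78 CPM in other nuclei. igfals, the plasma partner that stabilizes them in mammals, was at 184 against 10.5 CPM, and agt, the precursor of angiotensin, at 899 against 53.5 CPM. The insulin receptor gene insra was at 62.4 against 57.3 CPM over all nuclei. irs2b, an adaptor of the insulin receptor, was at 59.6 against 51.8 CPM over all nuclei but below other nuclei within each fish, at 48.6 against 65.2 CPM in Zebra1, 0 against 16.5 CPM in Zebra2 and 106 against 203 CPM in Zebra3. The fish entered the sums of liver and other nuclei in different shares.

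Drug and steroid metabolism had 7 of 34 genes called higher and 0 lower (median log2 ratio 2.07), among them the cytochromes cyp1a (102 against 12.5 CPM) and cyp2ad2 (131 against 15.9 CPM). Of 23 bile acid and transport genes, 1 was called higher and 2 lower. Not called were the bile salt export pump abcb11b, at 181 CPM in liver nuclei and 14.9 CPM in other nuclei, and the bile acid receptor gene nr1h4, at 38.5 and 20.5 CPM. Fatty acid synthesis and oxidation had 1 of 32 called higher, the chain-elongating enzyme elovl2 at 71.5 against 7.80 CPM, and a median log2 ratio of only 0.21. In the acute phase and stress group, 4 of 32 entries were called higher. These were crp3, a pentraxin (8222 against 790 CPM), the copper carrier cp (3703 against 244 CPM) and both entries of hp, the haptoglobin that binds free hemoglobin. crp2, of the same pentraxin family, ran the other way at 240 CPM in liver nuclei and 2418 CPM in other nuclei, and so did the chaperone of the endoplasmic reticulum hspa5 at 82.0 and 896 CPM, though neither was called in all fish.

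None of 30 liver transcription factors was called, although 23 of them had at least 50 UMIs in liver nuclei and the median log2 ratio was 1.29. hnf4a, a nuclear receptor that directs hepatocyte genes, was at 88.2 CPM (80.2 to 96.9) in liver nuclei and 18.6 CPM (17.8 to 19.5) in other nuclei, and was detected in 10.8% of thinned liver nuclei, 3.88% of other nuclei and 0.00% of muscle-ranked nuclei. The liver regulators gata4 (13.1 against 1.31 CPM), onecutl (38.7 against 4.07 CPM), prox1a (348 against 40.6 CPM) and foxa1 (13.3 against 1.65 CPM) had the largest ratios of the list. cebpa was at 17.3 CPM in liver nuclei and 19.6 CPM in other nuclei, and creb3l3l at 11.7 and 26.8 CPM. The list held 2156 CPM in liver nuclei in all, and gata4 had 0 UMIs in liver nuclei of Zebra2. A call also needed a 4-fold ratio in the 28 liver nuclei of that fish, against other nuclei that include the lower-ranked ones. Against nuclei with a marker share under 1%, prox1a was 27.5-fold and hnf4a 8.40-fold higher, while the ratios of cebpa and creb3l3l were 0.929 and 0.410.

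**Figure D2:**
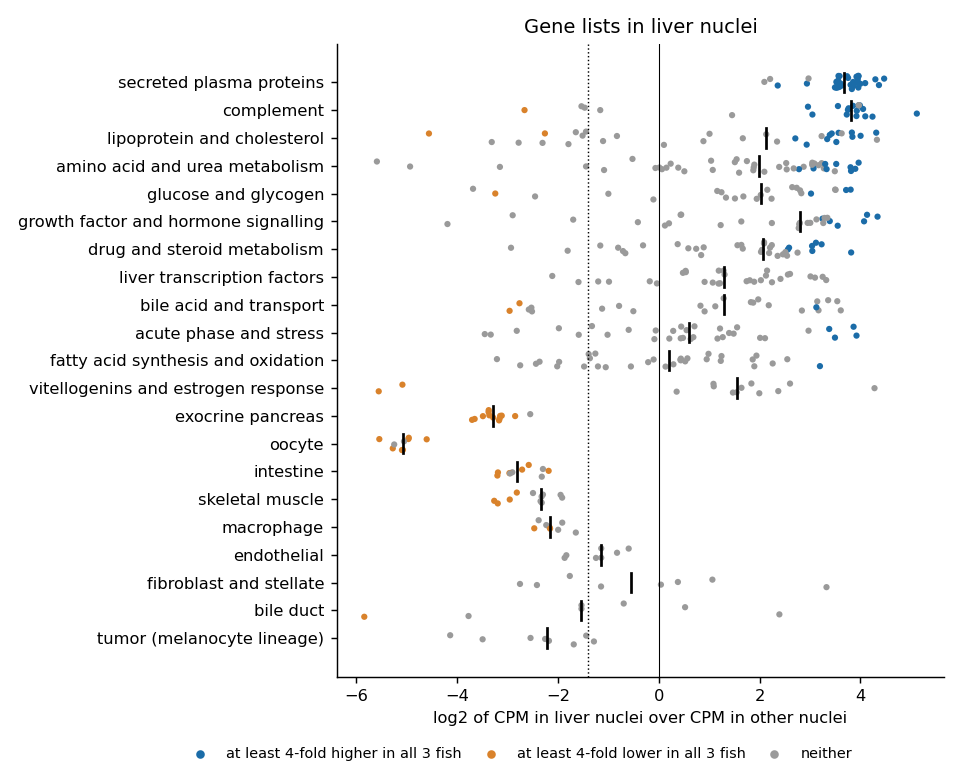
Each point is a gene of the list named on the left, placed by the log2 ratio of its CPM in liver nuclei over its CPM in other nuclei, with genes at 0 UMIs set to 3 counts. Blue points were at least 4-fold higher and orange points at least 4-fold lower in all 3 fish, black bars are list medians, and the dotted line is the median of all 22870 genes (−1.41). Plasma protein and complement genes lie near 4 on this scale and exocrine pancreas and oocyte genes below −2.

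Outside these lists, the largest ratio among called genes with at least 200 UMIs belonged to fgf19, a hormone that in mammals is released by the intestine and restrains bile acid synthesis. It was at 156 CPM (145 to 167) in liver nuclei and 4.70 CPM (4.27 to 5.15) in other nuclei, or 33.2-fold, with 217, 28.6 and 69.1 CPM in liver nuclei of Zebra1, Zebra2 and Zebra3. thrsp, known in mammals for a role in fat synthesis, followed at 72.9 against 2.62 CPM. serpina7, which in mammals carries thyroid hormone, was at 1322 against 51.2 CPM. CFI, the protease that inactivates complement C3, was at 685 against 30.3 CPM, and the heme carrier hpx at 588 against 27.1 CPM. serpina7, CFI and hpx thus also encode secreted plasma proteins.

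Markers of other cell types in the body were mostly lower in liver nuclei than in the free RNA. Exocrine pancreas genes summed to 979 CPM in liver nuclei, 10290 CPM in other nuclei and 12440 CPM in free RNA, with 12 of 13 called lower, and oocyte genes to 354, 11100 and 8772 CPM, with 7 of 9 called lower. Intestine genes were at 174 CPM in liver nuclei and 1114 CPM in other nuclei (6 of 10 lower), and skeletal muscle genes at 208 and 1158 CPM (4 of 11 lower). Yet single UMIs of these types were widespread: 792 liver nuclei had at least 1 UMI of an exocrine pancreas gene and 114 had at least 5. The part of free RNA and of mixed droplets in these low levels was not tested.

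Markers of the minor cell types of the liver itself varied in level. Endothelial genes summed to 16.1 CPM in liver nuclei and 38.7 CPM in other nuclei, with the sinusoid receptor gene stab2 at 2.82 CPM in liver nuclei. Macrophage genes were at 126 and 589 CPM, with the scavenger receptor gene marco at 6.65 CPM in liver nuclei. The fibroblast and stellate list was higher in liver nuclei, at 333 against 80.8 CPM, but 95.5% of its UMIs came from col5a1, a fibrillar collagen gene (318 against 31.7 CPM), while colec11, a stellate marker in zebrafish, was at 3.42 against 3.32 CPM and col1a2 at 5.64 against 19.1 CPM. Likewise 77.6% of the UMIs of the bile duct list came from the keratin krt8, at 541 CPM in liver nuclei and 103 CPM in other nuclei, a gene that hepatocytes also use. anxa4, the next gene of that list, was at 94.1 CPM in liver nuclei and 65.5 CPM in other nuclei. The level of hepatocyte genes cannot test the label, since such genes chose the nuclei. Of the markers of other liver cells named here, col5a1, krt8 and anxa4 were higher than in other nuclei and colec11 was about level. Lower were stab2 (2.82 against 10.0 CPM), marco (6.65 against 29.8 CPM) and col1a2. So were the macrophage genes cd74a (72.1 against 321 CPM) and grn1 (30.0 against 166 CPM) and the bile duct gene tm4sf4 (38.3 against 111 CPM).

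Intestine and exocrine pancreas, the other digestive organs, share regulators with the liver, and the 300 nuclei ranked highest on the markers of each were set beside the liver nuclei. hnf4a was at 88.2 CPM in liver nuclei, 130 CPM (113 to 149) in intestine-ranked nuclei and 17.8 CPM (12.8 to 23.9) in pancreas-ranked nuclei, so it did not separate liver from intestine. foxa3 was at 24.98 CPM (20.8 to 29.8) in liver nuclei, 10.1 CPM (5.76 to 16.4) in intestine-ranked nuclei and 5.37 CPM (2.86 to 9.18) in pancreas-ranked nuclei, but by fish it was at 33.4 CPM in liver nuclei of Zebra1 and at 8.57 and 12.3 CPM in those of Zebra2 and Zebra3, inside the intestine interval. nr5a2, a nuclear receptor active in all of these organs, was at 127, 70.6 and 163 CPM in the same order. These intervals cover counting error only, and the nuclei were ranked on markers from the same counts.

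Lipid carriers were compared in the same way. apobb.1 was shared, at 3030 CPM in liver nuclei and 2288 CPM in intestine-ranked nuclei. apoa4b.1, an apolipoprotein of dietary fat transport, was at 125 CPM in liver nuclei and 1255 CPM in intestine-ranked nuclei. fabp1b.1, a member of the fatty acid binding family, was at 16.1 and 2232 CPM. The liver form fabp10a, which chose the liver nuclei, was at 243 CPM in intestine-ranked nuclei and 610 CPM in pancreas-ranked nuclei. Of the 300 pancreas-ranked nuclei, 13 were also lower-ranked nuclei by liver marker share, against 0 of the 300 intestine-ranked nuclei. The part of those 13 in the levels of the pancreas-ranked nuclei was not tested.

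Hashtags placed 804 of the 1000 liver nuclei in 1 fish and gate, while 86 carried no tag above background and 110 carried several. Zebra1 gave 513 of them, Zebra3 263 and Zebra2 28. Lower-ranked nuclei were divided in another way, with 295 from Zebra1, 170 from Zebra3 and 779 from Zebra2. The rule thus drew few members from Zebra2 although that fish held about as many nuclei of at least 2% marker share (807) as Zebra1 (808). The 28 liver nuclei of Zebra2 had a median of 9262 gene UMIs, against 2800 in Zebra3 and 4206 in Zebra1.

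In each fish, nuclei tagged GFPpos held the larger share of liver nuclei. In Zebra1, liver nuclei were 454 of 1775 tagged GFPpos (25.6%, Clopper-Pearson 95% interval 23.6 to 27.7) and 59 of 1368 tagged GFPneg (4.31%, 3.30 to 5.53). In Zebra3 they were 194 of 759 tagged GFPpos (25.6%, 22.5 to 28.8) and 69 of 2077 tagged GFPneg (3.32%, 2.59 to 4.19). In Zebra2 they were 27 of 1412 (1.91%) and 1 of 1105 (0.0905%). With all nuclei of at least 2% marker share the ratio of the GFPpos to the GFPneg share was smaller in each fish. The shares were 36.7% against 11.5% in Zebra1, 38.2% against 24.2% in Zebra2 and 34.1% against 8.38% in Zebra3. All 3 fish went the same way, but 3 pairs cannot reach p = 0.05 in an exact paired test, and no test was made.

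**Figure D3:**
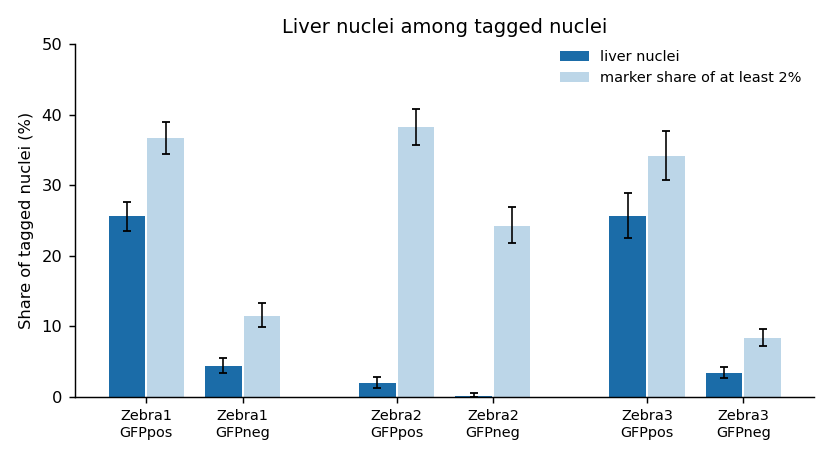
Share of tagged nuclei (vertical axis, %) that were liver nuclei (dark bars) or had a marker share of at least 2% (light bars), for each fish and gate tag, with Clopper-Pearson 95% intervals as error bars. In each fish the GFPpos bars are the taller, and the dark bars of Zebra2 stay under 2%.

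The transgenes were low in liver nuclei under both tags. Human BRAF was at 63.9 CPM in liver nuclei, 132 CPM in other nuclei and 220 CPM in free RNA, and EGFP at 14.9, 36.3 and 86.2 CPM. In liver nuclei of Zebra1, human BRAF was at 68.0 CPM (58.3 to 78.7) with the GFPpos tag and 100.6 CPM (55.0 to 169) with the GFPneg tag, and in those of Zebra3 at 44.0 CPM (30.1 to 62.1) and 94.4 CPM (54.0 to 153). EGFP had 44 UMIs with the GFPpos tag (16.8 CPM, 12.2 to 22.6) and 1 UMI with the GFPneg tag (7.19 CPM, 0.182 to 40.05) in liver nuclei of Zebra1, and 2 UMIs (2.75 CPM, 0.333 to 9.93) and 0 UMIs (up to 21.8 CPM) in those of Zebra3. In point value BRAF was thus lower and EGFP higher under GFPpos in both fish, but the intervals of the tags overlapped for both genes. Neither transgene exceeded its level in the free RNA in liver nuclei of any fish and tag with 10 or more nuclei.

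Of the gene lists, that of vitellogenins and estrogen response differed most between fish, with a median ratio of Zebra3 over Zebra1 of 0.0598 in liver nuclei, against 0.951 to 2.46 in the others. Some single genes outside the lists differed more. Summed over vtg1 to vtg7, liver nuclei held 7875 CPM in Zebra1, 24740 CPM in Zebra2 and 332 CPM in Zebra3, beside 3402 CPM in free RNA. At least 1 vitellogenin UMI was found in 511 of 513 liver nuclei of Zebra1, in 28 of 28 of Zebra2 and in 99 of 263 of Zebra3. Lower-ranked nuclei gave the same order, at 5607, 26530 and 2016 CPM. Nuclei with a marker share under 1% held only 143, 280 and 182 CPM. Some of the vitellogenin genes are near-identical copies whose reads may be split by the counting, so levels are given mainly for their sum. vtg2 did not follow the order of the sum, at 3142, 883 and 21.2 CPM in liver nuclei of Zebra1, Zebra2 and Zebra3. vtg1 and vtg3 to vtg7 were each higher in Zebra2 than in Zebra1.

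Of the 12 vitellogenin and estrogen response genes with at least 100 UMIs in liver nuclei, 9 were at least 4-fold lower in liver nuclei of Zebra3 than in those of Zebra1 and 1 was at least 4-fold higher. Of these 9, 7 were the vitellogenin genes, some of which may share reads and do not count as separate genes. Over all 2625 genes with as many UMIs, 43 (1.64%) were at least 4-fold lower and 168 (6.4%) at least 4-fold higher in Zebra3, and the median ratio of Zebra3 over Zebra1 was 1.51. The estrogen receptors did not move together. esr1, the receptor that estrogen induces in fish liver, was at 14.5 CPM in liver nuclei of Zebra3, 60.0 CPM in Zebra2 and 272 CPM in Zebra1. For esr2b the levels in Zebra3, Zebra2 and Zebra1 were 896, 91.5 and 230 CPM, and for esr2a they were 220, 17.2 and 30.8 CPM. The values of Zebra2 rest on 28 nuclei, and in lower-ranked nuclei the levels in Zebra3, Zebra2 and Zebra1 were 15.9, 244 and 522 CPM for esr1, 1150 CPM, 566 CPM and 442 CPM for esr2b, and 297, 42.9 and 45.8 CPM for esr2a, so that the order of Zebra2 and Zebra1 turned for esr2b. Among GFPneg-tagged nuclei of at least 2% marker share in Zebra3, Zebra2 and Zebra1, esr1 was at 17.8, 791 and 717 CPM. There esr2b was at 1265, 2105 and 738 CPM and esr2a at 350, 139 and 90.3 CPM. With 1 animal each these are differences between fish, with no replicate check.

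A few other metabolic genes, most of them chosen after their values were seen, were high in Zebra3. In their lists, 1 of 31 amino acid genes, 1 of 15 glucose genes and 2 of 15 fatty acid genes were at least 4-fold higher in Zebra3 than in Zebra1, beside 6.4% of all genes. The same held for 3 of 12 bile acid and transport genes and 1 of 17 liver transcription factors, with 0 and 1 at least 4-fold lower. malat1, a long RNA retained in the nucleus, moved in the same order, at 28350 CPM in liver nuclei of Zebra3, 2624 CPM in Zebra2 and 11510 CPM in Zebra1, and its part in the values below was not tested. me1, malic enzyme, which supplies reducing power for fat synthesis, was at 1014 CPM in liver nuclei of Zebra3, 2.86 CPM in Zebra2 and 70.7 CPM in Zebra1. pck1, the control enzyme of glucose formation, was at 721, 20.0 and 128 CPM in that order, and cpt1b, which admits fatty acids to mitochondria, at 537, 11.4 and 81.9 CPM. Transporters showed the same order: the prostaglandin carrier slco2a1 was at 1729, 25.7 and 486 CPM and the amino acid carrier slc38a3a at 401, 2.86 and 18.9 CPM. The regulator prox1a stood at 1245, 40.01 and 118 CPM. Of the 28 liver nuclei of Zebra2, 27 were tagged GFPpos. Among GFPneg-tagged nuclei of at least 2% marker share, slco2a1 was at 2435, 1087 and 1404 CPM in Zebra3, Zebra2 and Zebra1. For prox1a these levels were 1913, 654 and 261 CPM, so the order of Zebra2 and Zebra1 turned. There me1, pck1, cpt1b, slco2a1 and slc38a3a kept the order. The alcohol dehydrogenase adh8a was low in Zebra3, at 54.6 CPM, against 574 CPM in Zebra2 and 673 CPM in Zebra1, and so was the cytochrome cyp2k6, at 11.1, 126 and 122 CPM.

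**Figure D4:**
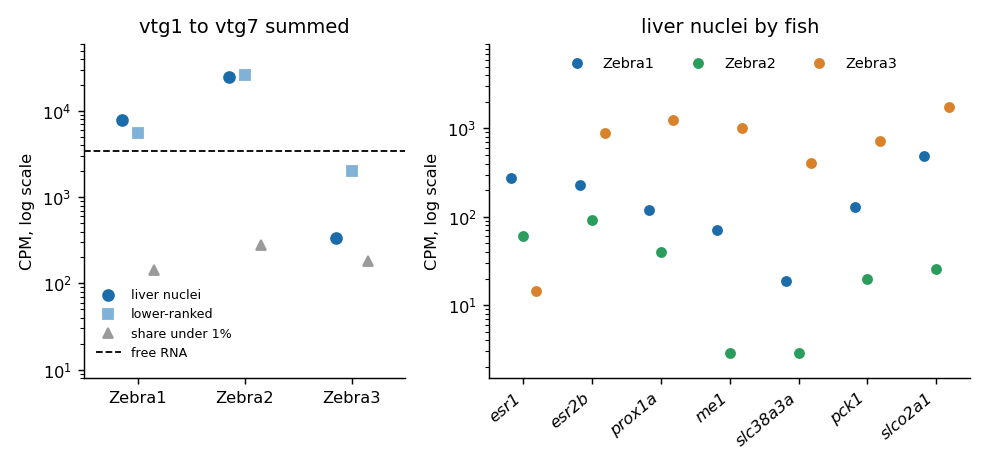
Left, summed CPM of vtg1 to vtg7 (log axis) for each fish in liver nuclei, lower-ranked nuclei and nuclei with a marker share under 1%, with the free RNA as a dashed line. Right, CPM (log axis) of 7 genes in liver nuclei of each fish: esr1 is lowest in Zebra3 (14.5 CPM) and the other 6 genes are highest there.

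Levels within the liver nuclei were set out by rank. Over 4 successive blocks of 250 nuclei, from the highest to the lowest marker share, apoa1b, tfa and fabp10a summed to 84720, 66890, 53300 and 48470 CPM, while tdo2a, slc38a4, agxtb and ldlra summed to 5470, 7582, 11060 and 8559 CPM. malat1 was at 8636, 13450, 21790 and 17820 CPM. The median depth was 5566, 3765, 2648 and 2729 UMIs. The sums of the 7 genes follow from the ranking itself and are given as levels only. The first block was the deepest and lowest in malat1, and depth and composition cannot be told apart there.

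RNA composition also differed between the gate tags within liver nuclei. In Zebra1, mitochondrial genes were at 11920 CPM in liver nuclei tagged GFPpos and 3026 CPM in those tagged GFPneg, and in Zebra3 at 8959 and 3058 CPM. Ribosomal protein genes were at 221400 and 105600 CPM in Zebra1 and at 95840 and 48550 CPM in Zebra3. malat1 ran the other way, at 9866 CPM under GFPpos and 42520 CPM under GFPneg in Zebra1, and at 23540 and 49010 CPM in Zebra3. Depth moved with the tag as well, with medians of 4764 and 2306 UMIs in Zebra1 and 3028 and 2371 UMIs in Zebra3. So did the marker share that ranked the nuclei, with medians of 7.24% and 6.18% in Zebra1 and 7.31% and 5.98% in Zebra3. The part of depth and of marker share in the differences between tags was not tested. Among nuclei with a marker share under 1%, malat1 was likewise lower under GFPpos in each fish (3843 against 25490 CPM in Zebra1, 2107 against 36040 CPM in Zebra2 and 17010 against 46440 CPM in Zebra3), so that difference was not particular to liver nuclei.

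**Figure D5:**
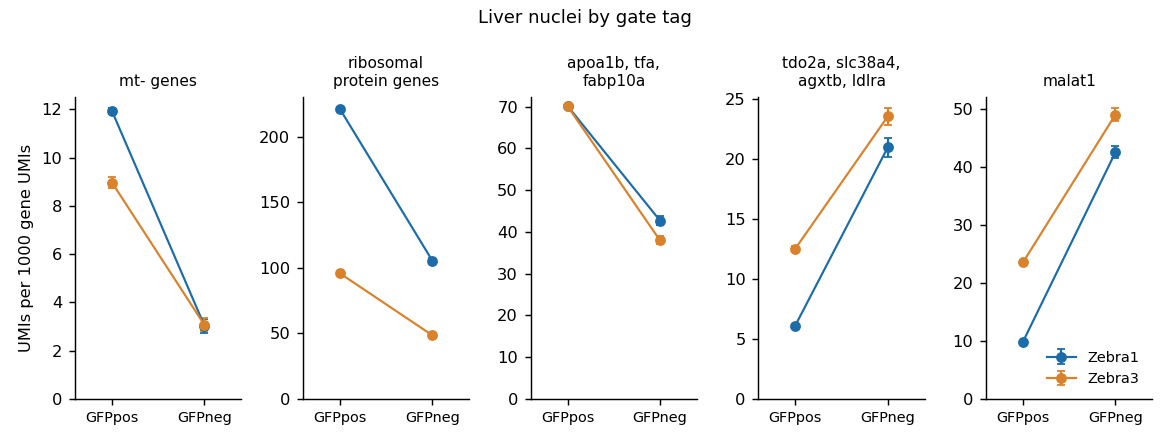
UMIs per 1000 gene UMIs (vertical axes, each from 0) in liver nuclei tagged GFPpos and GFPneg, joined for Zebra1 and Zebra3, with exact Poisson 95% intervals as error bars. Mitochondrial genes, ribosomal protein genes and the set of apoa1b, tfa and fabp10a are higher under GFPpos in both fish. malat1 and the set of tdo2a, slc38a4, agxtb and ldlra are lower.

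Genes were tested between the tags on UMI sums of each fish and gate with edgeR's quasi-likelihood test, fish as a term and Benjamini-Hochberg adjustment. Only Zebra1 and Zebra3 had at least 10 liver nuclei in both gates, which leaves 4 sums and 1 residual degree of freedom. Of 4112 genes, 590 (14.3%) were higher and 116 (2.82%) lower in liver nuclei tagged GFPpos. The split depended on the scaling: with total UMIs in place of TMM, 213 were higher and 1261 lower, and the median log2 ratio of all genes was −0.87 instead of −0.09. All 213 were among the 590 and all 116 among the 1261, and 0 genes changed from higher to lower. The 590 include apoa1b, tfa and fabp10a of the rule, which chose the nuclei, so their calls are not read as results.

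Mitochondrial and ribosomal protein genes rose with the GFPpos tag under both scalings. All 10 mitochondrial genes measured were higher (median log2 ratio 2.51, or 1.70 with total UMIs), and 78 of 82 ribosomal protein genes (76 higher and 2 lower with total UMIs). Secreted plasma proteins were higher for 25 of 36 entries, complement for 9 of 17 and lipoprotein genes for 11 of 21, with 1 lower. With total UMIs, plasma proteins had 10 higher and 1 lower, complement 4 higher and 1 lower, and lipoprotein genes 5 higher and 3 lower. Of 20 liver transcription factors, 0 passed in edgeR with TMM (1 at an unadjusted p under 0.05) and 0 in DESeq2, whereas 8 were lower with total UMIs. Exocrine pancreas genes were higher for 7 of 8 with TMM and for 3 in DESeq2, but for 0 with total UMIs (1 at an unadjusted p under 0.05). hbaa1, a hemoglobin chain of red cells, was higher under both, at 129 and 28.9 CPM in Zebra1 and Zebra3 tagged GFPpos, against 43.1 and 0 CPM in the same fish tagged GFPneg.

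Single genes with the largest changes had few UMIs. mt-nd2, a subunit of respiratory complex I, was at 203 and 192 CPM in liver nuclei tagged GFPpos of Zebra1 and Zebra3, against 57.5 and 35.4 CPM in those tagged GFPneg (log2 ratio 2.87, edgeR quasi-likelihood test, Benjamini-Hochberg adjusted p = 6.37e-06). ndufs3, another subunit of that complex, had 80 UMIs under GFPpos and 0 under GFPneg, and was thus at least 2.46-fold higher against a floor of 3 counts over the group. urad, an enzyme of urate breakdown, was at 30.5 and 23.4 CPM against 7.19 and 0 CPM. On the other side, c3a.5, a further C3 copy, was at 11.8 and 6.87 CPM under GFPpos in Zebra1 and Zebra3, against 79.1 and 88.5 CPM under GFPneg (log2 ratio −2.25, edgeR adjusted p = 0.000164). The protease gene adam17b (4.96 and 4.12 CPM against 35.9 and 41.3 CPM) and the focal adhesion kinase gene ptk2aa (4.20 and 2.75 CPM against 35.9 and 29.5 CPM) were also lower with the GFPpos tag in both fish. These genes were picked for the size of their change. Of those named here, only mt-nd2 was given an adjusted p by DESeq2. When the nuclei of at least 2% marker share were tested, with sums from all 3 fish, 1156 of 6222 genes (18.6%) were higher and 305 (4.9%) lower.

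Dissociated cells gave almost no liver. The same rule, with a share of at least that of the last liver nucleus, was met by 2 of 1746 cells in sample E and 3 of 940 cells in sample F, with highest shares of 15.6% and 13.5%. Those cells had 8629 and 32440 CPM of fabp10a in samples E and F, against 0.755 and 2.41 CPM in the other cells. In the nuclei library, fabp10a was at 7241 CPM in lower-ranked nuclei and at 160 CPM in nuclei with a marker share under 1%. No barcode of a liver nucleus occurred among the cells, and 5 barcodes of other nuclei occurred in sample E. Reads from separate libraries, tissues and preparations entered this paragraph, so the values are set side by side only.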

How the data were processed

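Nuclei were read from the raw UMI counts per gene and barcode that the authors deposited for every barcode, hashtags included, and cells from the deposited UMI counts of barcodes that Cell Ranger called as cells. The submitters' processing notes name Cell Ranger 5.0.1 for nuclei and 3.1.0 for cells, and list GRCz10 among builds with no stated role. The header of the nuclei counts names another Cell Ranger version. The reference included human BRAF and EGFP. Members and gene lists were chosen with earlier results of these data known.

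Liver nuclei were ranked as described, and UMIs were summed over nuclei and scaled to CPM. A gene needed 20 UMIs in all nuclei kept, and a call needed a 4-fold ratio in the sum and in each fish, with 3 counts as a floor for 0. Intervals (95%, exact Poisson or Clopper-Pearson) cover counting error only. A nucleus took a fish and gate when exactly 1 hashtag exceeded 2 times its median. Sums of at least 10 nuclei entered edgeR 4.0.16 (TMM, filterByExpr, quasi-likelihood test, fish as a term because both gates of a fish come from 1 animal, adjusted p of 0.05), with DESeq2 1.42.0 as an alternative. p-values there rest on 2 fish in 1 library. Both steps were tested on simulated data.

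Named genes were the 7 genes of the rule, per list up to 4 genes with the largest and 2 with the smallest ratio among those with at least 50 UMIs, the 15 called genes outside the lists with the largest ratio and at least 200 UMIs, the 10 with at least 500 UMIs and the largest ratio between fish, up to 10 called each way between gates, and the transgenes. Genes such as hnf4a, foxa3, apobb.1, apoa4b.1, pck1, cpt1b, slco2a1, adh8a, cyp2k6, krt8, col5a1, colec11, stab2 and marco were added after their values were seen. One gene that the rule names is not reported here. Scrublet (scanpy 1.11.5) marked 2 of 11236 nuclei and no liver nucleus, which is too few for a working caller, so no doublets were removed. Alternatives were other ranks, depths, folds, tags, scalings, filters and fish left out. Software was Python 3.11.15, numpy 2.4.6, scipy 1.17.1, pandas 2.3.3, matplotlib 3.10.9 and R 4.3.3.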

Additional observations from a re-analysis of the deposited data

How the results depend on the processing

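The number of genes at least 4-fold higher or lower in liver nuclei was set by the members and fish used. It was 134 higher and 7 lower with the top 500 nuclei, 495 and 4343 at 2-fold, 547 and 3532 in Zebra1 and Zebra3 alone, and 279 to 544 higher and 1527 to 3910 lower when each fish was left out in turn. With at least 2000 UMIs 2452 were lower, against nuclei with a share under 1% 477 were higher, and with all nuclei of at least 2% share as members 621 were higher. The share of liver nuclei under GFPpos in Zebra1 was 28.6% when the highest tag had to be at least 3 times the second. With the top 500 nuclei it was 15.0% in Zebra1, 0.00% in Zebra2 and 16.1% in Zebra3 under GFPpos, and 0.877% in Zebra1 and 0.241% in Zebra3 under GFPneg. With a share of at least 2% it was 36.7%, 38.2% and 34.1% under GFPpos in Zebra1, Zebra2 and Zebra3, and 11.5%, 24.2% and 8.38% under GFPneg. Genes between the tags in liver nuclei numbered 371 higher and 12 lower in DESeq2, 213 and 1261 with total UMIs, 306 and 47 with the stricter tag, 247 and 20 in the last 500 liver nuclei by rank, 1156 and 305 with all nuclei of at least 2% share as members, and 11 lower with no filter. In those 500, 525 of the 706 called genes were measured, all with the same sign, and 259 were called. Those 500 were part of the liver nuclei that gave the 706 calls, and held most of the GFPneg-tagged ones. The shared sign is thus not an independent check. Without the replicate block, that is without pairing the gates of a fish, 0 higher and 0 lower genes passed edgeR (380 at an unadjusted p under 0.05). With nuclei of at least 2% share the counts were 745 and 19 in DESeq2, 172 and 3135 with total UMIs, 44 lower with no filter, 0 and 0 without the replicate block (1250 at an unadjusted p under 0.05), and 307 to 1093 higher and 41 to 181 lower with each fish left out, lowest without Zebra1. With the top 500 nuclei, the calls in Zebra2 rested on 1 nucleus. With a floor of 3 counts for 0, few genes could be called lower in that fish. The causes of these shifts were not otherwise tested. The median marker share stayed within its spread under all 6 values recomputed. Leaving a fish out of the test in liver nuclei left no residual degrees of freedom. The top 500 held both gates in 1 fish only, and scrublet calls were too few to filter on, so these alternatives were not run. With the 5% highest scrublet scores left out instead, 298 genes were at least 4-fold higher and 1800 at least 4-fold lower in liver nuclei than in other nuclei. Promoter motifs were not analysed here. The 28 liver nuclei of Zebra2 and the 59 and 69 nuclei under GFPneg limit every value by fish and tag.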

Other observations

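hamp, the hormone hepcidin that closes the iron exporter, was at 166 CPM in liver nuclei and 21.2 CPM in other nuclei, and was 19.3-fold, 3.92-fold and 15.6-fold higher in Zebra1, Zebra2 and Zebra3, so it was not called. saa, the acute phase protein serum amyloid A, had 5 UMIs in liver nuclei, or 1.01 CPM (0.327 to 2.35), against 3.02 CPM in other nuclei, so it was at the edge of detection.

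Among genes chosen after their values were seen, several had much higher levels in liver nuclei of 1 fish than in those of the others. dio3b, an enzyme that inactivates thyroid hormone, was at 229 CPM in liver nuclei of Zebra3, 0 CPM in Zebra2 and 3.26 CPM in Zebra1. The fatty acid transport genes SLC27A3 (391, 5.72 and 0.725 CPM in Zebra3, Zebra2 and Zebra1) and slc27a6 (363, 2.86 and 3.63 CPM) and the ion exchanger gene slc24a3 (486, 0 and 1.45 CPM) were also highest in Zebra3, as was the receptor gene epha3 (364, 0 and 4.35 CPM). slc24a3 and epha3 were also found outside liver nuclei, at 269 and 54.2 CPM in other nuclei of Zebra3. In lower-ranked nuclei, which the ranking left out, slc27a6 was at 596, 2.69 and 9.17 CPM in Zebra3, Zebra2 and Zebra1. ptgir, the prostacyclin receptor, was high in Zebra1 instead, at 3.34 CPM in Zebra3, 0 CPM in Zebra2 and 70.7 CPM in Zebra1. These are values of 1 fish each.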
